A study of Mus musculus with 10 samples.

Results

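The 8 genes described here were higher in the cerebral cortex of HIV-1 gp120 transgenic mice than in that of wild-type mice. They are 8 of the 41880 genes listed in the count table, and all 8 were among the 16941 genes with enough counts to be tested. They were chosen by their read counts in these libraries, for a consistent rise in the transgenic ones, so their difference between the genotypes is what chose them. It is given below as a description, with no p-value. What did not enter the choice is how the genes vary together between mice of the same genotype, which genes share their pattern, and how genes with nearby identifiers behave.

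One group of 5 mice, labelled gp120tg, carried the HIV-1 gp120 transgene, and the other 5, labelled WT, were wild-type controls. All were aged 12 months, and the labels name no treatment of either group. Each library is called a biological replicate in the labels and was taken as 1 mouse. The sources used here give neither the promoter that drives the transgene nor the founder line, the sex of the mice or the day on which each library was made. A difference between the lines other than the transgene cannot be told apart from it.

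The gp120 protein is the outer part of the HIV-1 envelope, which the virus uses to bind its receptor and a chemokine co-receptor on host cells. Infected cells shed it, and in the brain it is known to injure neurons and to activate glial cells without infection of the neurons themselves. Mice that make the protein are used to study this injury in the absence of virus. In bulk cortex, more cells of a type and more RNA per cell cannot be told apart, and this holds for every gene below.

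The table gives each gene by an identifier alone. The members carry identifiers of the form found in Ensembl's BALB/cJ strain annotation, and 0 of the 8 matched the mouse gene tables at hand. No symbol, function or chromosome position is therefore stated, and the cortex label could not be checked against marker genes. Gene lengths were not used here, so levels are compared between mice for 1 gene. Between genes, abundance serves only as a measure of read depth, to set limits, pick genes of like abundance and sum the 8.

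Library totals were 17061862 to 19774880 counts in gp120tg and 16451161 to 19176929 in WT. Levels are given as CPM, a gene's share of the library's counts scaled to a fixed total after correction by a trimmed-mean (TMM) factor. In gp120tg every member had at least 313 counts in every library. In WT, MGP_BALBcJ_G0029726 had 0 to 8 counts per library, and the other members had at least 44. By edgeR's quasi-likelihood test, 8 of 8 members were called higher, against 6.40% of all tested genes. Each member's gp120tg libraries all lay above its WT libraries, as they did for 6.66% of all tested genes. Both counts follow from how the members were picked, and nothing is read from them. The median log2 fold change was 2.62 over the members and -0.03 over all tested genes.

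**Figure D1:**
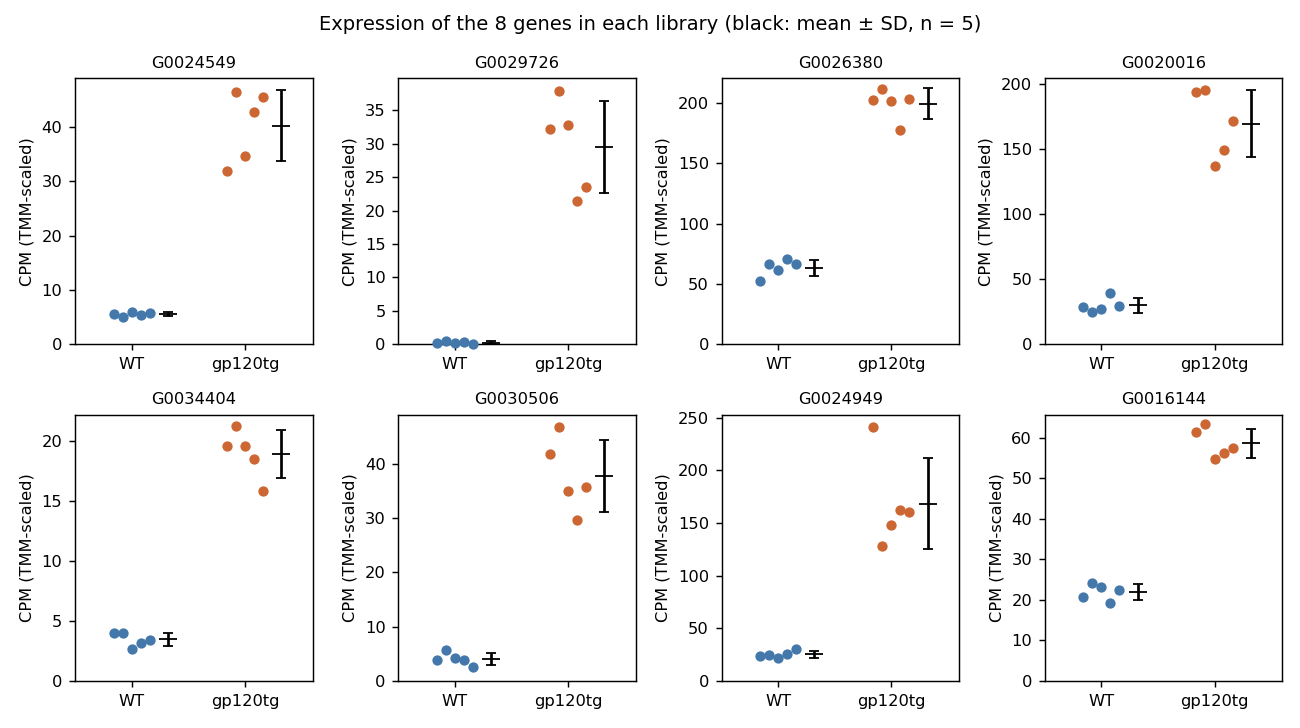
Expression of each of the 8 genes in each library, in TMM-scaled CPM on an axis that starts at 0. Points are single mice in order of replicate number, and black marks give the mean ± SD (n = 5). Gene labels leave out the prefix MGP_BALBcJ. In every panel the lowest gp120tg point lies above the highest WT point, by 2.27-fold or more.

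MGP_BALBcJ_G0029726 came closest to being absent from WT. Its gp120tg libraries, replicates 1 to 5, stood at 32.1, 37.9, 32.7, 21.4 and 23.5 CPM. The WT libraries stood at 0.252, 0.475, 0.122, 0.307 and 0 CPM, from 4, 8, 2, 5 and 0 counts. The genotypes did not overlap, and within gp120tg replicates 4 and 5 lay below the other 3. The mean was 29.5 ± 6.86 CPM in gp120tg and 0.231 ± 0.181 CPM in WT (SD, n = 5 per group). The fit gave a log2 fold change of 6.98 (standard error 0.38). It rests on 19 WT reads in all against 2846 gp120tg reads. The ratio of the pooled CPM was 132, with an exact 95% interval of 84.2 to 219 that covers counting error only. In WT replicate 5, the count of 0 allows a level of up to 0.159 CPM (3 counts).

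MGP_BALBcJ_G0030506 had the next highest fold change of the members. It stood at 41.7, 46.7, 35.0, 29.6 and 35.7 CPM in gp120tg replicates 1 to 5. In WT it stood at 3.78, 5.64, 4.22, 3.87 and 2.65 CPM. Replicate 2 was the highest of both groups, and the lowest gp120tg library was 5.24 times the highest WT library. The means were 37.7 ± 6.61 and 4.03 ± 1.08 CPM (SD, n = 5 per group), a 9.37-fold difference (log2 fold change 3.23, standard error 0.19).

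MGP_BALBcJ_G0024549 was even across WT and uneven across gp120tg. The WT libraries stood at 5.61, 4.93, 5.93, 5.46 and 5.77 CPM. The gp120tg libraries stood at 31.9, 46.5, 34.6, 42.8 and 45.5 CPM, with replicates 1 and 3 below the other 3. The coefficient of variation (CV, the SD as a percentage of the mean) was 6.94% in WT and 16.4% in gp120tg. In WT that is below the 10.4% that the counting of reads alone would give, and it was 3.53% without WT replicate 2. The fold difference was 7.26 (log2 fold change 2.86, standard error 0.13).

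MGP_BALBcJ_G0024949 had 1 gp120tg mouse far above the others. Replicate 1 stood at 242 CPM, and replicates 2 to 5 at 129, 148, 163 and 161 CPM. WT replicates 1 to 5 stood at 24.1, 25.0, 21.5, 25.3 and 30.5 CPM. Every gp120tg mouse was at least 4.22 times the highest WT mouse, replicate 5. With all libraries the means were 168 ± 43.1 and 25.3 ± 3.28 CPM (SD, n = 5 per group), and the log2 fold change was 2.73 (standard error 0.17). Without gp120tg replicate 1 its gp120tg mean was 149.98 ± 15.6 CPM (SD, n = 4), the CV fell from 25.6% to 10.4%, and the log2 fold change was 2.57. That mouse thus carried most of this gene's spread within gp120tg.

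MGP_BALBcJ_G0020016 showed 1 high WT mouse instead. WT replicate 4 stood at 39.6 CPM and WT replicates 1, 2, 3 and 5 at 28.4, 24.7, 27.0 and 29.1 CPM. In gp120tg, replicates 1 to 5 stood at 194, 195, 137, 149 and 172 CPM. The genotypes stayed apart, with the lowest gp120tg library, replicate 3, at 3.46 times the highest WT library. The means were 169 ± 26.0 and 29.8 ± 5.77 CPM (SD, n = 5 per group), a 5.69-fold difference (log2 fold change 2.51, standard error 0.15). Without WT replicate 4 the CV in WT was 7.05%, against 19.4% with it.

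MGP_BALBcJ_G0034404 was the member with the lowest counts in gp120tg. It stood at 19.6, 21.2, 19.5, 18.5 and 15.8 CPM in gp120tg, from 313 to 415 counts. In WT it stood at 3.97, 3.98, 2.69, 3.19 and 3.44 CPM, from 44 to 67 counts. Its CV in WT was 15.8%, close to the 13.1% that counting alone gives, so differences between single WT mice were hardly resolved at this depth. The fold difference was 5.48 (log2 fold change 2.45, standard error 0.15).

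The remaining members, MGP_BALBcJ_G0026380 and MGP_BALBcJ_G0016144, had the lowest fold changes and were the steadiest in gp120tg. MGP_BALBcJ_G0026380 stood at 203, 212, 202, 177 and 203 CPM in gp120tg and at 52.5, 66.1, 61.6, 70.2 and 66.4 CPM in WT. Replicate 4 was the low library of gp120tg and the high library of WT. The fold difference was 3.15 (log2 fold change 1.65, standard error 0.09). MGP_BALBcJ_G0016144 stood at 61.3, 63.3, 54.6, 56.2 and 57.4 CPM in gp120tg and at 20.7, 24.1, 23.0, 19.3 and 22.3 CPM in WT. Its lowest gp120tg library was 2.27 times its highest WT library, the narrowest gap of the 8. The fold difference was 2.67 (log2 fold change 1.42, standard error 0.09).

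**Figure D2:**
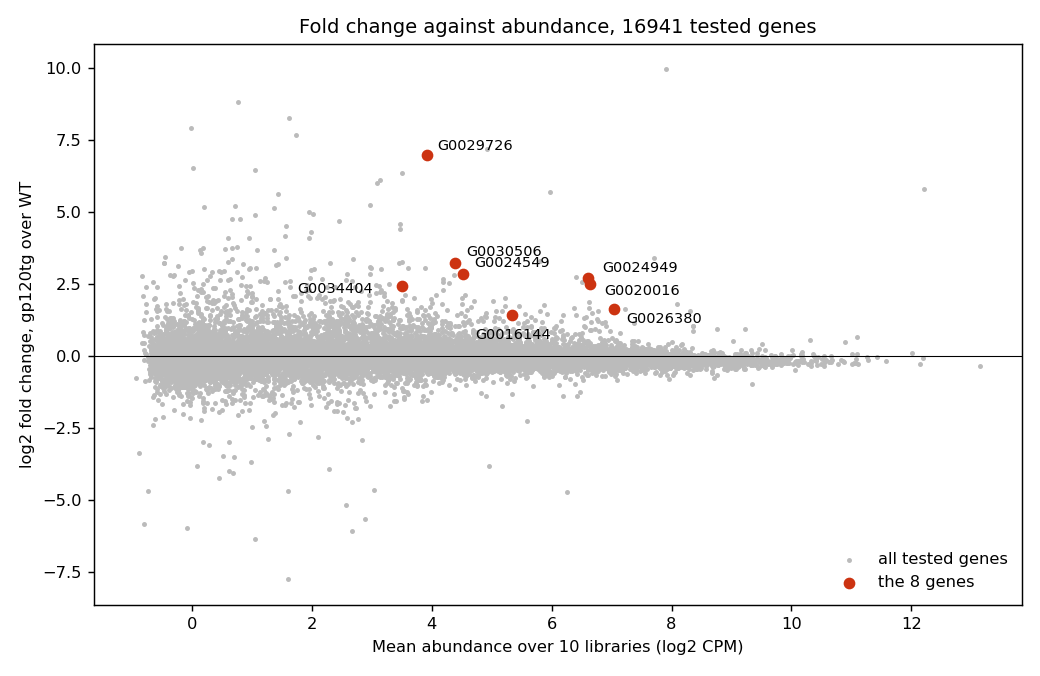
Fitted log2 fold change (gp120tg over WT) against mean abundance in log2 CPM for the tested genes (grey), with the 8 genes in red. The 8 genes span log2 fold changes of 1.42 to 6.98, and grey points lie around and above them.

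Limits on fold change and abundance did not set the members apart from other genes. A limit on another measure, such as the fold change over its standard error, was not tried. With the lowest member fold change and the lowest member abundance (11.4 CPM over the 10 libraries) as limits, 73 tested genes were at least as changed and as abundant. Of these, 71 were called higher with no overlap between the genotypes, the 8 members and 63 other genes. By fold change alone the members ranked 7 (MGP_BALBcJ_G0029726), 54, 78, 89, 112, 117, 264 and 363 (MGP_BALBcJ_G0016144) among all tested genes.

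Spread between mice differed widely among the members. In gp120tg the CV ran from 6.21% for MGP_BALBcJ_G0016144 to 25.6% for MGP_BALBcJ_G0024949. In WT it ran from 6.94% for MGP_BALBcJ_G0024549 to 26.7% for MGP_BALBcJ_G0030506, with MGP_BALBcJ_G0029726 apart at 78.2% (50.5% without WT replicate 5). Leaving out 1 library also moved the CV by over 1.5 times for MGP_BALBcJ_G0026380 in WT (10.7%, and 5.33% without replicate 1) and in gp120tg (6.50%, and 2.21% without replicate 4). It did so for MGP_BALBcJ_G0034404 in gp120tg (10.5%, and 5.75% without replicate 5) and MGP_BALBcJ_G0024949 in WT (12.98%, and 7.34% without replicate 5). The SD in CPM was larger in gp120tg for 8 of 8 members. An SD tends to rise with the mean, and the members were chosen for a higher mean, so nothing is read from this. The CV was larger in WT for 6 and in gp120tg for 2 (MGP_BALBcJ_G0024549 and MGP_BALBcJ_G0024949). No share over all tested genes was set beside these counts. The order of the CVs reversed without 1 library for MGP_BALBcJ_G0024949 (10.4% in gp120tg without replicate 1, 12.98% in WT). It also reversed for MGP_BALBcJ_G0020016 (7.05% in WT without replicate 4, 15.4% in gp120tg) and MGP_BALBcJ_G0026380 (5.33% in WT without replicate 1, 6.50% in gp120tg). These differences in spread were not tested.

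Read counting accounted for little of the gp120tg spread. It gave 0.473% of the variance for MGP_BALBcJ_G0024949, 1.31% for MGP_BALBcJ_G0020016 and at most 25.1% for MGP_BALBcJ_G0034404. In WT, where counts were fewer, it gave 5.33% for MGP_BALBcJ_G0020016, 42.1% for MGP_BALBcJ_G0029726 and 68.96% for MGP_BALBcJ_G0034404. For MGP_BALBcJ_G0024549 in WT the variance from counting was 223% of the observed variance, and so exceeded it. The members were not all steadier than other genes. Consistency between mice entered their choice, so the comparison of their spread with other genes is a description only. Against the 1000 tested genes nearest in abundance, edgeR's dispersion was below the median for 4 members and above it for 4. MGP_BALBcJ_G0016144 was the steadiest, with 95 of its 1000 neighbours lower, and MGP_BALBcJ_G0024949 the least steady, with 849 lower.

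**Figure D3:**
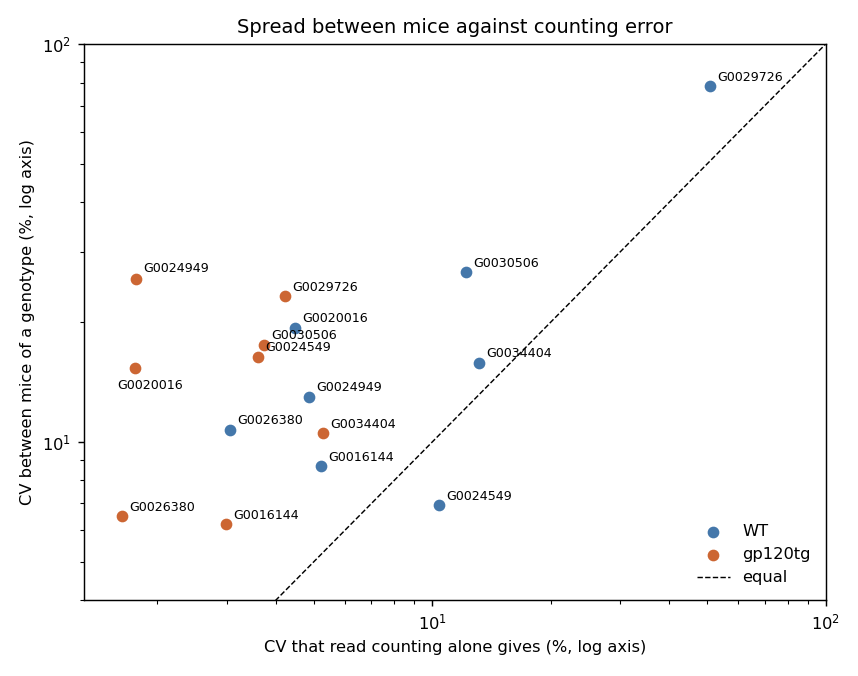
CV between the 5 mice of a genotype against the CV that read counting alone gives, both in percent on log axes, for each of the 8 genes in each genotype. Points above the dashed line of equality have a larger CV than counting alone gives on average. With 5 mice, a point near the line on either side cannot be told apart from counting error. MGP_BALBcJ_G0024549 in WT (6.94% against 10.4%) lies below the line.

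Within gp120tg, 1 mouse was highest for nearly all members. Replicate 2 held the highest level for 7 of the 8, both with TMM scaling and with library totals alone. The exception was MGP_BALBcJ_G0024949, which was lowest in that mouse and highest in replicate 1. For 2 of the 7, MGP_BALBcJ_G0029726 and MGP_BALBcJ_G0030506, the counting interval of the ratio to the next mouse lay above 1. The ratios were 1.16-fold (exact 95% interval 1.04 to 1.29) and 1.12-fold (1.02 to 1.23). For the other 5 the interval included 1. These intervals do not allow for the choice of the highest mouse after its values were seen, or for the number of genes. They thus do not settle that any excess was beyond counting error. Replicate 4 was lowest for 3 members, replicate 3 for 2, and replicates 1, 2 and 5 for 1 each.

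Outside the set, replicate 2 stood out less. It held the highest gp120tg level for 17.1% of all tested genes, below replicate 5 (28.4%) and replicate 4 (24.4%). Among the genes called higher it was highest for 28.9%, beside 25.4% for replicate 1 and 24.5% for replicate 5. Among the 63 comparable genes it was highest for 25 (39.7%), beside 22 (34.9%) for replicate 1. Whether the members differ in this from those genes was not tested. In WT the highest mouse was replicate 2 for 4 members, replicate 4 for 2, and replicates 3 and 5 for 1 each. With library totals alone, WT replicate 2 was highest for 5 and WT replicate 4 for 1. Each WT mouse was highest for 17.8% to 22.3% of all tested genes. Among the genes called higher, WT replicates 2 and 4 were each highest for 25.3%. Among the 63 comparable genes they were highest for 24 (38.1%) and 19 (30.2%). Whether the members differ from these shares in WT was not tested. Together the 8 genes made up 0.0736% ± 0.00735 (SD, n = 5) of all counts in gp120tg and 0.0151% ± 0.00115 (SD, n = 5) in WT.

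**Figure D4:**
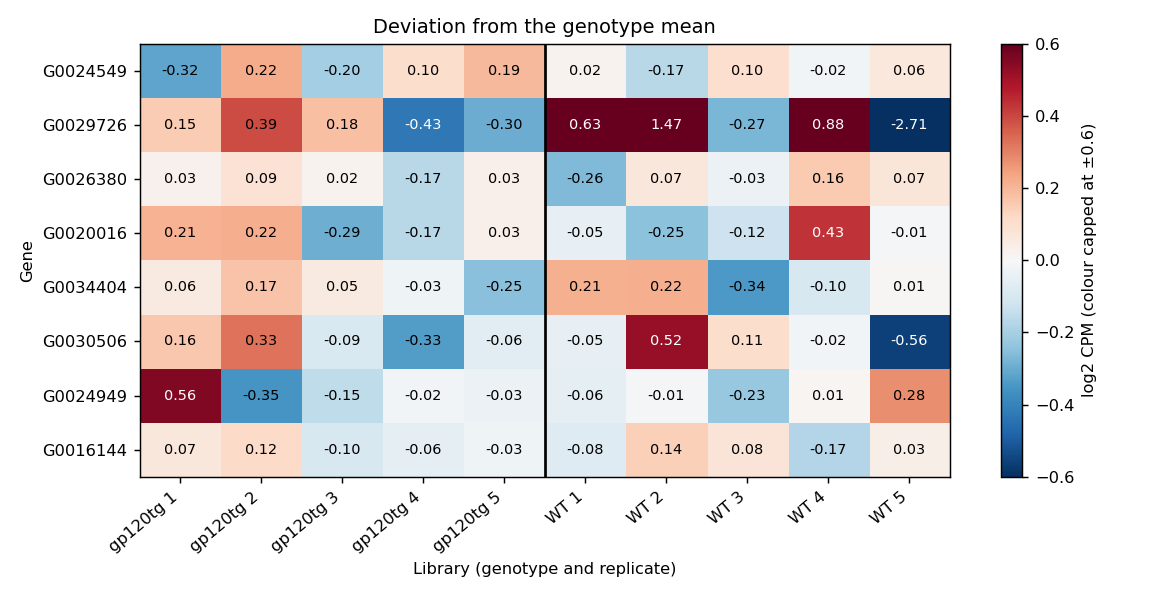
Deviation of each of the 8 genes from its genotype mean in each library, in log2 CPM, with the value printed in each cell and the colour capped at ±0.6. In gp120tg replicate 2 all rows are positive except MGP_BALBcJ_G0024949 (-0.35), which is 0.56 above its mean in gp120tg replicate 1.

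Co-variation was measured on deviations from the genotype mean, since the genotypes form separate clusters and a pooled correlation would restate the rise itself. Over the 10 libraries, 16 of the 28 pairs of members had a positive Pearson's r. The median r was 0.05, with a range from -0.58 to 0.81. For comparison, each member had a positive r with 45.9% to 53.4% of all tested genes. After Benjamini-Hochberg adjustment over the 28 pairs, 0 passed the exact permutation test by Pearson's r (smallest adjusted p = 0.317) and 0 by Spearman's rho on ranks within genotype (smallest adjusted p = 0.487). Without adjustment, 1 pair by each measure had a p under 0.05. With both genotypes pooled, no co-variation between mice was detectable at 10 libraries, which does not show that the members vary independently. Pooling can also join unlike patterns. In gp120tg alone 19 of the 28 pairs had a positive r (median 0.26) and in WT alone 13 (median -0.08), and 10 pairs had opposite signs in the genotypes. The widest contrast was between MGP_BALBcJ_G0020016 and MGP_BALBcJ_G0016144, with r = 0.95 in gp120tg and -0.90 in WT, a pair chosen after its values were seen. Each genotype has only 5 libraries, so these are values with no test, and the difference between genotypes was not tested.

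The highest r joined the members with the largest fold changes. MGP_BALBcJ_G0029726 and MGP_BALBcJ_G0030506 had r = 0.81 (exact permutation p = 0.0113, adjusted p = 0.317) and rho = 0.70 (exact permutation p = 0.0522, adjusted p = 0.487). Without WT replicates 2 and 5, the libraries farthest from the median of MGP_BALBcJ_G0029726, which had 8 and 0 counts there, r was 0.36. In gp120tg alone, where the counts of MGP_BALBcJ_G0029726 were 370 to 740, r was 0.85 (a value with no test). Whether the genes are related apart from those WT libraries was not tested. Of all tested genes, 0.313% were at least as correlated with MGP_BALBcJ_G0029726, and 0.413% with MGP_BALBcJ_G0030506. The pair was taken as the highest of 28, so small shares follow in part from that choice. By rank, MGP_BALBcJ_G0030506 and MGP_BALBcJ_G0016144 were the leading pair, with rho = 0.75 (exact permutation p = 0.0336, adjusted p = 0.487) and r = 0.52 (exact permutation p = 0.175, adjusted p = 0.996). Without the same WT libraries, here the farthest from the median of MGP_BALBcJ_G0030506, their r was 0.73.

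The lowest r was between MGP_BALBcJ_G0024549 and MGP_BALBcJ_G0024949, at -0.58 (exact permutation p = 0.157, adjusted p = 0.996; rho = -0.50, exact permutation p = 0.192, adjusted p = 0.818). Without gp120tg replicates 1 and 3, the libraries farthest from the median of the former gene, it was -0.23. In gp120tg replicate 1 the former gene was 0.32 below its genotype mean on the log2 scale and the latter 0.56 above it. In replicate 2 the order was the opposite, with deviations of 0.22 and -0.35, while in replicate 3 both genes were below their means. Over all 28 pairs, r changed sign in 10 when the 2 libraries farthest from the median of the first gene were left out. MGP_BALBcJ_G0024549 had a positive r to 2 of the other 7 members, and to 45.9% of all tested genes. MGP_BALBcJ_G0020016, MGP_BALBcJ_G0030506 and MGP_BALBcJ_G0016144 had a positive r to 5 members each, and to 49.8%, 53.3% and 53.4% of all tested genes. Whether these counts differ from those shares was not tested.

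**Figure D5:**
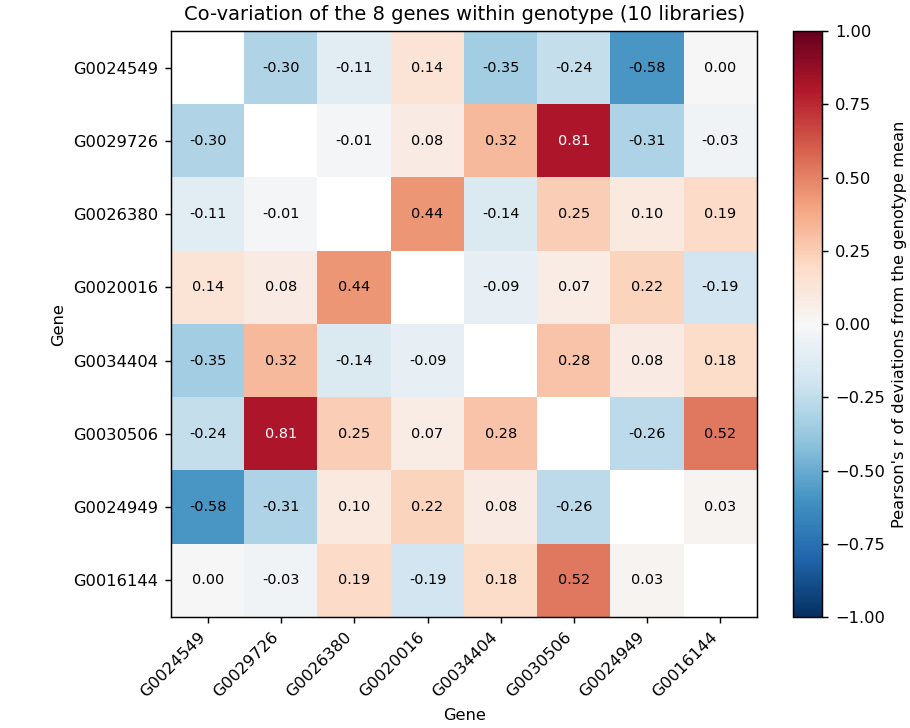
Pearson's r between each pair of the 8 genes, computed over 10 libraries on log2 CPM less the genotype mean. Red is positive and blue negative. The values run from -0.58 to 0.81 with no block of uniformly high r.

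Member levels within genotype were also set against the library total and the second principal component of all tested genes, an axis that carried 18.1% of the variance and set gp120tg replicate 4 and WT replicates 4 and 5 apart from the other libraries. Over these 16 relations r ran from -0.55 to 0.57. None passed (0 of 16) the exact permutation test after Benjamini-Hochberg adjustment (smallest adjusted p = 0.658 for r), and 0 had an unadjusted p under 0.05 by r or by rho. For MGP_BALBcJ_G0020016 and the second component, r was -0.43 (exact permutation p = 0.272, adjusted p = 0.658) and rho -0.55 (exact permutation p = 0.145, adjusted p = 0.581). Without gp120tg replicate 4 and WT replicate 5 that r was -0.90, the value farthest from 0 of the 16 relations with these libraries left out. Of the libraries that the axis sets apart, this keeps only WT replicate 4, the highest WT mouse for this gene (39.6 CPM). The -0.90 may thus rest on 1 library and was not tested.

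The genes most alike to each member in these deviations were sought among all tested genes. For each member the 2 tested genes with the highest r over the 10 libraries were taken, and 0 of these 16 were members. The members are so few among all tested genes that 0 was likely in advance, and nothing is read from it. Their r was 0.89 to 0.96, the best of 16941 tested genes over only 10 libraries, and is a description. MGP_BALBcJ_G0016730 was most alike to MGP_BALBcJ_G0026380 (r = 0.96). It was also called higher, at 24.5 CPM in gp120tg and 8.57 CPM in WT (log2 fold change 1.52 ± 0.18 standard error, adjusted p = 0.000153 by edgeR).

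Of the 16 genes, 4 were called, all of them higher, against 6.40% of all tested genes called higher. Beside MGP_BALBcJ_G0016730 they were MGP_BALBcJ_G0026855 and MGP_BALBcJ_G0031272, both most alike to MGP_BALBcJ_G0020016, and MGP_BALBcJ_G0033535, most alike to MGP_BALBcJ_G0030506. Their log2 fold changes were 0.41, 1.03 and 0.84 (edgeR adjusted p = 0.0033, 0.000862 and 0.00434). The gene most alike to MGP_BALBcJ_G0024949, MGP_BALBcJ_G0027175 (r = 0.95), stood at 47.4 CPM in gp120tg and 47.5 CPM in WT (log2 fold change 0.00, edgeR adjusted p = 0.99). The gene most alike to MGP_BALBcJ_G0024549, MGP_BALBcJ_G0033573 (r = 0.96), stood at 195 and 200 CPM (log2 fold change -0.04, edgeR adjusted p = 0.846). Among the genes most alike to the members, some thus differed between the genotypes and others did not pass the test.

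Genes with nearby identifier numbers were called no more often than other genes in the counts below, and most did not pass the test. Whether identifier order is genome order is not stated in the labels. Of the 16 identifiers directly before or after a member, 11 were tested and 0 were called by edgeR (smallest adjusted p = 0.152), with log2 fold changes of -0.77 to 0.82. The 5 that were not tested had at most 19 counts in any library. Within 5 numbers on either side of a member, 56 genes were tested, and 1 was called (1.79%), against 8.37% of all tested genes. It was MGP_BALBcJ_G0030510, which lies 4 numbers after MGP_BALBcJ_G0030506. It stood at 9.10 CPM in gp120tg and 5.04 CPM in WT (log2 fold change 0.85 ± 0.18 standard error, adjusted p = 0.0085 by edgeR). The count depended on the window and the scaling, with 7 of 115 tested genes called (6.09%) within 10 numbers, and 2 of 56 within 5 numbers when library totals were the only scaling.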

How the data were processed

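Messenger RNA from the cerebral cortex was sequenced in 10 mice, 5 gp120tg and 5 WT, grouped by the sample titles. The authors deposited raw counts per gene, not normalized, with 1 column per library. HTSeq (version 0.5.4), STAR, GATK, SAMtools (version 0.1.18) and Picard were used in an unstated order, per the submitters' processing notes. Genome build, annotation release and strand setting: not given in the sources used here. Reads of genes that overlap on opposite strands may therefore be mixed.

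The 8 genes, the choice of comparisons and the leave-out sets were made with earlier results of these data known. Counts were fitted with edgeR version 4.0.16 (R version 4.3.3), using TMM factors, its default filter on low counts, robust dispersions, genotype as the only term, and Benjamini-Hochberg adjustment over all 16941 genes tested. A gene was called at an adjusted p under 0.05. Standard errors are |log2 fold change| / √F from that test. CPM was computed from the library total times its TMM factor. Co-variation used log2 CPM with a prior count of 0.5, less the genotype mean, and an exact two-sided permutation of libraries within each genotype (14400 arrangements). The fit and the permutation test were tested on simulated data. In the simulation of gp120tg against WT (16721 genes), changes were set only among the more abundant genes, and all were rises in gp120tg. Among them, 58% of genes changed 1.5-fold and 86% changed 2-fold were recovered. At 4-fold 98% and at 8-fold 100% were recovered, so smaller changes can be missed. Recovery among the less abundant genes was not simulated.

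The genes given individually are the 8, some of the 2 tested genes most alike to each of them, and any called gene within 5 identifier numbers. The identifiers directly before and after each member are given only as counts and a range. The mouse gene tables at hand hold 0 of the identifiers, so symbols, functions, positions, sequences and cell type markers were not used here. The alternatives were DESeq2 (version 1.42.0), limma-voom (version 3.58.1), other scalings and filters, a replicate block, thinning, and leaving out libraries.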

Additional observations from a re-analysis of the deposited data

Results flagged for a closer look

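Outlying libraries were sought with Dixon's test in 20 groups of 5 libraries, for the 8 genes, their sum and the library totals in each genotype, and chance marks about 1 group in 20. It marked 2. MGP_BALBcJ_G0026380 stood at 177 CPM in gp120tg replicate 4, below the 202 to 212 CPM of the other gp120tg libraries. Without that library its gp120tg CV was 2.21% in place of 6.50%, and its log2 fold change was 1.70 in place of 1.65. WT replicate 5 had 19176929 counts, above the totals of the other WT libraries.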

How the results depend on the processing

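Each of the 8 genes was called higher in all 21 alternative fits, in which 790 to 1312 genes in all were called higher. The members were picked for their rise in these same counts, so this follows from the choice and nothing is read from it. Their log2 fold changes ranged most for MGP_BALBcJ_G0029726, from 6.66 without WT replicate 5 to 7.43 without WT replicate 2. Over all tested genes, 333 were called lower. That count was 557 with DESeq2, 199 without gp120tg replicates 3, 4 and 5 together, and 211 to 305 without 1 library, with the lowest values without WT replicate 1 (211) and gp120tg replicate 1 (219). With a replicate block, 892 genes were called higher and 270 lower, against 1085 and 333 without it. The block changed no member's call, from which likewise nothing is read. Same-numbered libraries correlated at -0.15 to 0.29 in their deviations and 0 of 5 gp120tg libraries were most like the WT library of the same number, so the numbers were not taken to pair the mice. The median r of the 28 pairs, 0.049, was -0.043 to 0.113 without 1 library. It was 0.257 in gp120tg alone and -0.080 in WT alone (5 libraries each), so its sign is not settled. The cause was not tested. Called genes near a member numbered 7 of 115 tested within 10 identifiers, 0 of 20 within 2, and 2 of 56 with library totals as the only scaling. The labels do not say how the mice were bred or housed, and 5 mice per genotype limit the precision of every correlation.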
